A study of Mus musculus with 27 samples.

Results

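Motor neuron progenitors in which wildtype Nkx2.2 had been switched on were compared with progenitors of the same line in which it had not. The comparison took 6 of the 27 samples of the series, 3 libraries with the transgene induced (iNkx2.2) against 3 uninduced libraries (pMN), and each induced library was set against the uninduced library of the same replicate number, which gave 3 pairs. All 6 libraries came from 1 mouse embryonic stem cell line, differentiated toward spinal motor neurons and collected on day 4. The line carries a wildtype Nkx2.2 copy with a FLAG tag behind a promoter that doxycycline turns on. The induced cultures received 1 µg/ml doxycycline late on day 3 for about 16 h (the treatment protocol gives 14 to 16 h), and the pMN cultures received none. Doxycycline was given only together with an active transgene, so effects of the compound and of Nkx2.2 cannot be told apart. The labels do not say that replicates were separate cultures, so p-values measure the spread between these libraries, which may be technical.

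Sonic hedgehog from the notochord and floor plate divides the ventral neural tube into progenitor domains, each marked by its own transcription factors. The pMN domain carries Olig2, Pax6 and Nkx6-1 and makes motor neurons, and the p3 domain below it carries Nkx2.2 and makes V3 interneurons in the spinal cord. Nkx2.2 is a homeodomain protein that is known mainly as a repressor in these cells, where it can recruit corepressors of the Groucho (TLE) family, and it represses the neighbouring domain's genes.

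The total count per library was 17757991 to 24021440 in pMN and 21740964 to 46840701 in iNkx2.2. The library iNkx2.2 replicate 1 was the deepest. The mitochondrial share of the counts was 1.66% to 2.79% over the 6 libraries. Replicate 3 of both groups was sequenced in lane 4 and the others in lane 2, so the lane and replicate 3 cannot be told apart. The pMN libraries carried the markers of their label: Olig2 was at 199 to 283 CPM (counts per 1e+06 counts, scaled by edgeR's TMM factors) and Nkx6-1 at 167 to 280. They also held Nkx2-9, a p3 marker, at 69.3 to 97.2 CPM and Foxa2, a floor plate factor, at 52.3 to 67.3 CPM. Whether these came from the same cells as Olig2 cannot be told from bulk RNA. In bulk RNA, fewer cells of a type and less RNA per cell cannot be told apart.

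The induced gene was checked first. Nkx2-2 (chromosome 2, 147176485 to 147195434, GRCm38, protein-coding) had 11.6, 5.37 and 10.7 CPM in pMN replicates 1 to 3 and 377, 342 and 342 CPM in iNkx2.2 replicates 1 to 3. Every induced library was above every uninduced one, and the log2 fold change was 5.26 (SE 0.263, edgeR quasi-likelihood adjusted p 0.00393). The count does not separate the transgene from the endogenous gene. The size is known less well than the direction: against a minimum change of 2-fold the adjusted p was 0.0508.

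Of 14998 genes tested in pairs, 6885 (45.9%) passed an adjusted p of 0.05, 3389 higher (22.6%) and 3496 lower (23.3%) in iNkx2.2. The calls were thus 49.2% higher ones, a share that became 67.4% when total library size replaced the scaling factors, which also moved the median of all genes to 0.09 on the log2 scale. Most of these differences were small, with a median change of 1.31-fold, and 4692 of them were under 1.5-fold. By at least 2-fold, 747 genes were called higher (4.98%) and 291 lower (1.94%). Among genes changed at least 8-fold, 30 were lower and 27 higher. Without the pairing, the same libraries gave 1612 calls (10.7%), 882 higher (5.88%) and 730 lower (4.87%), and 1603 of these were also called in pairs with the same sign. Over all genes tested the median log2 fold change was -0.01. On simulated counts with changes of 2-fold or 4-fold, the paired fit made more false calls than its threshold states. Smaller changes were not simulated, and those called only in pairs are to be read with caution. Each count of a gene group below is to be read against these shares, and a gene is said to have risen or fallen only where the paired test called it.

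**Figure D1:**
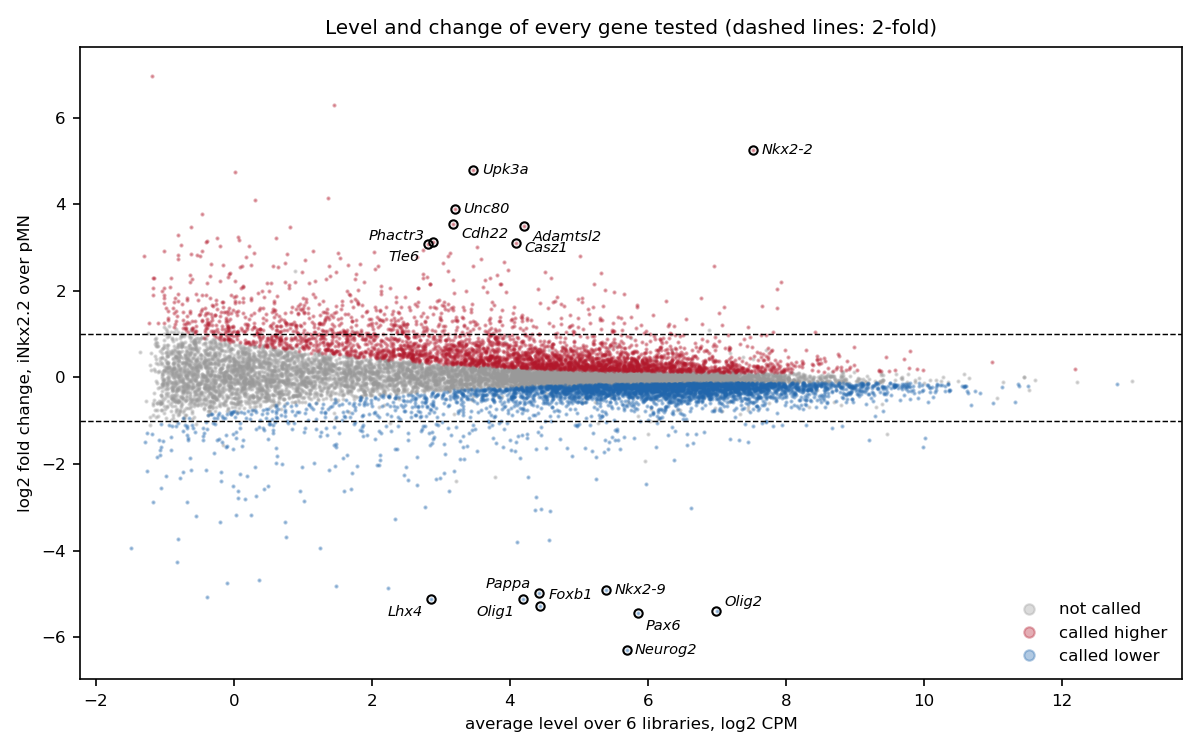
Average level over the 6 libraries (log2 CPM, horizontal) against the log2 fold change of iNkx2.2 over pMN (vertical) for each of the 14998 genes tested, with genes called higher in red, called lower in blue and others in grey. Most calls lie between the dashed 2-fold lines, while Nkx2-2 and a small set of transcription factor genes (Neurog2, Pax6, Olig2, Nkx2-9) lie far outside them.

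Transcription factors that define the pMN domain fell to a small part of their level. Of the 5 pMN genes tested, 4 fell, 3 of them by at least 2-fold, none rose, and the median log2 fold change was -5.12. Olig2, the factor that specifies motor neurons and later oligodendrocytes (chromosome 16, 91225550 to 91228677, GRCm38), had 283, 199 and 276 CPM in pMN and 10.5, 2.81 and 4.40 in iNkx2.2. The groups did not overlap, and the log2 fold change was -5.39 (SE 0.415, adjusted p by edgeR 0.0114). Its neighbour Olig1, at 45.7, 21.5 and 46.6 CPM, went to 1.65, 0.625 and 0.827 CPM (log2 fold change -5.12 with SE 0.143, adjusted p 8.79e-18 by edgeR). Pax6, which marks progenitors above the p3 domain, went from 97.4, 160 and 94.7 CPM to 2.61, 2.19 and 2.74 (log2 fold change -5.45 with SE 0.205, adjusted p 6.02e-05 by edgeR). The Nkx6 genes, which span both domains, did not share this loss. Nkx6-1 had 225, 167 and 280 CPM in pMN and 247, 165 and 283 in iNkx2.2, a log2 fold change of 0.05 (SE 0.0502, adjusted p by edgeR 0.475). With total library size in place of the scaling factors that value was 0.15 and passed the test (0.0126). Nkx6-2 fell by 0.59 on the log2 scale (edgeR adjusted p 3.56e-06, 0.12 without pairing).

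Nkx2-9, a close relative of Nkx2-2 that is also expressed in the p3 domain, went the opposite way from Nkx2-2. It had 97.2, 69.3 and 89.0 CPM in pMN and 4.97, 1.38 and 1.62 in iNkx2.2, a log2 fold change of -4.92 (SE 0.415, adjusted p by edgeR 0.0131). On a scale that allows genes to be compared, the authors' FPKM (fragments scaled by gene length and depth), the order in pMN was Olig2 at 96.8 ± 19.6, Nkx6-1 at 63.5 ± 19.4, Nkx2-9 at 62.4 ± 11.9, Pax6 at 33.0 ± 9.57, Olig1 at 19.1 ± 7.77 and Nkx2-2 at 6.79 ± 2.71 (SD, n = 3). Nkx6-1 and Nkx2-9 did not differ beyond their spread. In iNkx2.2 the order was Nkx2-2 at 329 ± 8.78, Nkx6-1 at 70.6 ± 21, Olig2 at 2.35 ± 1.46, Nkx2-9 at 1.94 ± 1.22, Pax6 at 0.867 ± 0.179 and Olig1 at 0.535 ± 0.253 (SD, n = 3). In the deepest library, iNkx2.2 replicate 1, Olig2 and Nkx2-9 stood above the other induced libraries. With that library thinned to the depth of its pMN partner the log2 fold changes were -5.51 and -5.09, and without replicate 1 they were -6.05 and -5.72. Without replicate 2 they were -5.19 and -4.74 and no longer passed the test (adjusted p 0.088 and 0.102). Against a minimum change of 2-fold neither gene was called (0.15 and 0.178).

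**Figure D2:**
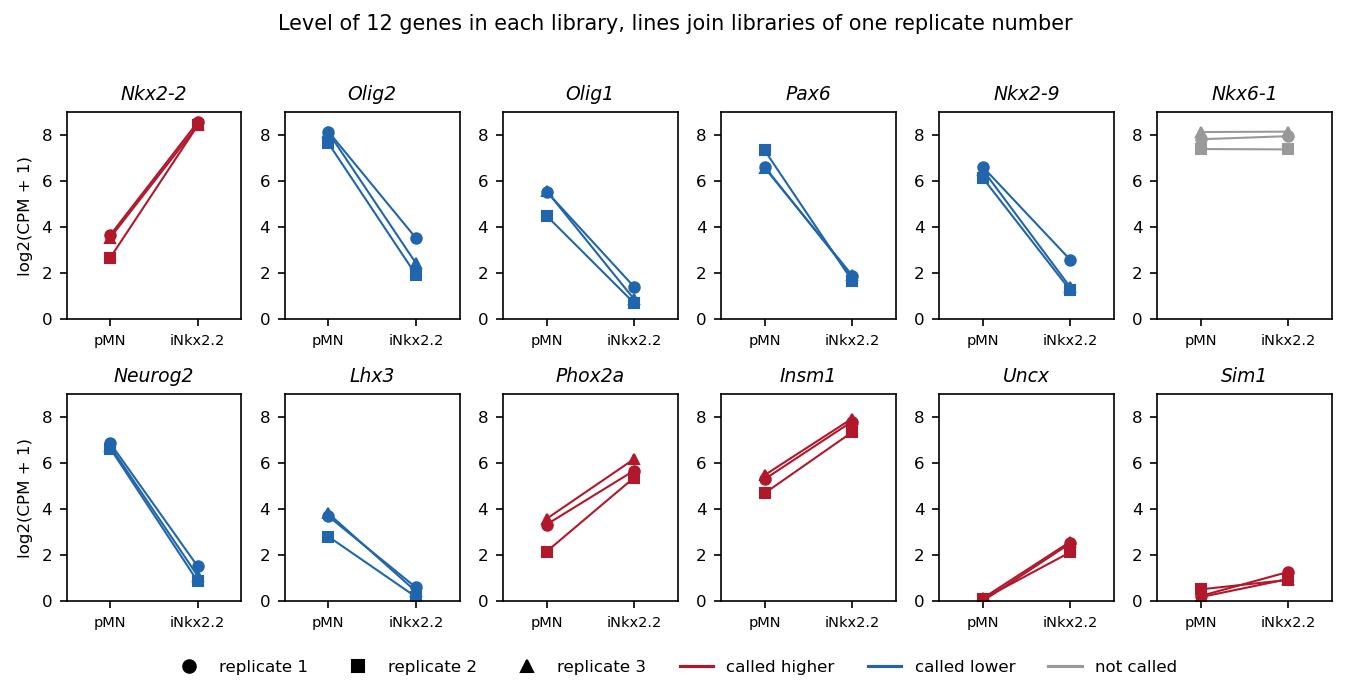
Level of 12 genes as log2(CPM + 1) in each library, with pMN on the left and iNkx2.2 on the right of each panel and a line joining the libraries of one replicate number. Olig2, Olig1, Pax6, Nkx2-9, Neurog2 and Lhx3 fall in all 3 pairs, Nkx2-2, Phox2a, Insm1, Uncx and Sim1 rise in all 3, and Nkx6-1 was not called (it was called higher with total library size).

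Genes of more dorsal progenitors were lower as well. Of the 8 tested of 14 intermediate and dorsal genes, 5 fell, each by at least 2-fold, and 1 rose, with a median log2 fold change of -1.44 (4 fell and 0 rose without pairing). Irx5, a homeobox gene of progenitors above the motor neuron domain, went from 9.81, 11.6 and 10.5 CPM to 2.57, 1.29 and 2.07 (log2 fold change -2.38, edgeR adjusted p 1.38e-09). Its relative Irx3, whose protein bounds the pMN domain dorsally, had 19.0, 32.3 and 22.8 CPM in pMN and 4.73, 3.08 and 6.73 in iNkx2.2. Although the groups did not overlap, Irx3 missed the paired threshold (log2 fold change -2.29, edgeR adjusted p 0.0534, and 0.00224 without pairing, 0.0242 without replicate 1). Prdm12, a regulator of p1 progenitors, had a log2 fold change of -2.88 from levels of at most 1.63 CPM. Dbx1 and Dbx2, which mark the p0 and p1 domains, fell by 1.45 and 1.44 on the log2 scale, though Dbx1 was not called without pairing (adjusted p 0.137). Pax3, a dorsal gene, rose from 0.166, 1.39 and 0.716 CPM to 0.876, 1.96 and 1.84 in the paired test only (edgeR adjusted p 0.00557, 0.311 without pairing, 0.0836 without replicate 1).

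Genes of the floor plate, the most ventral cell type, were modestly higher. Of 10 tested, 7 rose and 0 fell, 2 by at least 2-fold, with a median log2 fold change of 0.47, and 3 were called without pairing. Spon1, which encodes the secreted protein F-spondin, had 63.9, 32.9 and 58.8 CPM in pMN and 183, 89.6 and 124 in iNkx2.2 (log2 fold change 1.34, edgeR adjusted p 2.98e-09). Foxa2, the forkhead factor that specifies floor plate, rose from 59.3, 52.3 and 67.3 CPM to 104, 90.6 and 102 (log2 fold change 0.73, edgeR adjusted p 1.38e-10). Both genes showed groups without overlap. Shh itself did not pass the test: it had 4.05, 4.59 and 3.41 CPM in pMN and 4.48, 2.19 and 2.37 in iNkx2.2 (edgeR adjusted p 0.107, 0.0482 without replicate 1).

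The motor neuron genes changed in both directions. Of 15 tested, 8 fell and 4 rose, 6 and 2 of them by at least 2-fold, with a median log2 fold change of -0.43 (6 fell and 2 rose without pairing). The summed level of the list was nonetheless higher in each pair, at 428, 254 and 418 CPM in pMN and 693, 538 and 675 in iNkx2.2. Abundant members weigh most in that sum, and not all members are named here. Lhx3, the LIM homeodomain factor of the motor neuron code, had 11.9, 5.97 and 13.0 CPM in pMN and 0.510, 0.134 and 0.338 in iNkx2.2 (log2 fold change -4.87, edgeR adjusted p 1.01e-15). Its paralog Lhx4 had a log2 fold change of -5.13 (-6.31 without replicate 1), and Mnx1 (Hb9), the factor that maintains motor neuron fate, went from 17.1, 7.90 and 18.5 CPM to 3.32, 2.95 and 2.97 (log2 fold change -2.22). Isl2 (-2.62), Chat, the enzyme that makes acetylcholine (-2.86), and Onecut1 (-1.53) also fell. Isl1, which is shared by somatic and visceral motor neurons, did not pass the test at 66.8, 28.4 and 56.6 CPM against 56.5, 25.4 and 31.4 (log2 fold change -0.43, edgeR adjusted p 0.101), although it passed without replicate 2 (0.0417), without replicate 3 (0.0208) and with no filter on low counts (0.000658).

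Phox2a, a homeodomain factor of visceral motor neurons of the hindbrain, rose. It went from 9.03, 3.44 and 10.9 CPM in pMN to 49.9, 40.1 and 71.1 in iNkx2.2 (log2 fold change 2.80 with SE 0.187, adjusted p 0.000232 by edgeR). Every induced library was above every uninduced one, and the value of pMN replicate 2 was the lowest. Tbx20, another gene of this class, rose by 0.72 on the log2 scale in the pairs, with overlapping groups (0.256 without pairing, 0.0593 without replicate 1).

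Of the 4 tested of 6 genes of V3 interneurons, the neurons that p3 progenitors make, 2 rose, both by at least 2-fold and both to low levels, and 1 fell. The one that fell, Nhlh1, a factor of newborn neurons in general, had 46.1, 28.5 and 41.7 CPM in pMN and 35.4, 24.9 and 33.9 in iNkx2.2 (log2 fold change -0.30), and it was not called without pairing. Uncx, a homeobox gene of V3 neurons, had 3 counts in the 3 pMN libraries together and 437 in iNkx2.2, a ratio of scaled levels of 86.7 (95% interval 29.5 to 422 from counting error). Its levels in iNkx2.2 were 4.69, 3.35 and 4.96 CPM. Sim1, the classical V3 marker, had 13 and 114 counts, a ratio of 5.22 (2.93 to 10.1), and reached only 1.41, 0.893 and 0.940 CPM. Slc17a6, which encodes the vesicular glutamate transporter of V3 neurons, was too low to be tested, with 0, 0 and 0 counts in pMN and 36, 9 and 3 in iNkx2.2. Intervals and floors here cover counting error only.

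Among 11 tested genes of the V0 to V2 interneurons, 5 rose and 3 fell, 5 and 2 by at least 2-fold (4 and 2 without pairing). En1, the V1 marker, had 7 counts in pMN and 101 in iNkx2.2, a ratio of 8.58 (4.02 to 21.9). Bhlhe22 rose from 2.44, 3.08 and 2.36 CPM to 9.99, 7.32 and 9.02 (log2 fold change 1.75, edgeR adjusted p 3.83e-09), and Gata2, a V2b factor, rose by 1.34. Prdm8, a zinc-finger gene of intermediate progenitors, fell from 54.2, 31.6 and 53.0 CPM to 5.95, 1.65 and 2.48 (log2 fold change -3.75, edgeR adjusted p 0.0103, and 0.101 without replicate 2, while the value was -4.36 without replicate 1), and Foxn4, which starts V2 neurogenesis, fell by 1.18. The members that rose were all below 10 CPM in each induced library, while the largest fall was from a gene above 30 CPM.

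The proneural genes, basic helix-loop-helix factors that start neuronal differentiation, and their partners changed in both directions. Of 16 tested, 5 rose and 7 fell, with a median log2 fold change of -0.01 (4 and 3 without pairing). Neurog2, which drives motor neuron formation together with Olig2 (chromosome 3, 127632733 to 127635636, GRCm38), had the largest fall among genes whose average log2 CPM was over 2. It had 115, 98.3 and 105 CPM in pMN and 1.83, 0.804 and 1.13 in iNkx2.2, 79.1-fold lower (log2 fold change -6.31 with SE 0.115, adjusted p 8.96e-19 by edgeR). Its paralog Neurog1 had 30.0, 20.7 and 33.6 CPM against 31.7, 23.2 and 29.7, with no difference beyond the spread (edgeR adjusted p 0.92). Neurog3, the endocrine member, was below the count filter with 2, 3 and 1 counts in pMN and 20, 18 and 14 in iNkx2.2. Neurod4 rose by 1.60 on the log2 scale to 368, 356 and 325 CPM, while Neurod1 fell by 1.61. Insm1, a zinc-finger factor of newborn neurons and endocrine cells, rose from 38.4, 24.8 and 43.6 CPM to 223, 161 and 244 (log2 fold change 2.57 with SE 0.0594, adjusted p 1.63e-22 by edgeR).

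The hedgehog pathway fell at the level of its transcription factors and feedback genes. Of 14 genes tested, 8 fell and 1 rose, 7 of the falls by at least 2-fold, with a median log2 fold change of -0.83. Without pairing, 7 fell and 0 rose. The 3 Gli factors carry the signal into the nucleus. Gli1, an activator and itself a target of the pathway, went from 194, 189 and 150 CPM to 26.3, 23.2 and 17.0 (log2 fold change -3.01 with SE 0.0633, adjusted p 5.49e-23 by edgeR). Gli2, the main activator, went from 29.7, 35.5 and 38.2 CPM to 2.57, 1.65 and 2.89 (log2 fold change -3.80, SE 0.128). Gli3, mainly a repressor, went from 50.9, 69.0 and 73.2 CPM to 15.2, 19.5 and 24.2 (log2 fold change -1.72, SE 0.0695). The groups did not overlap for any of the 3.

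Ptch1 and Hhip, which bind the ligand and are induced by the pathway, were lower too. Ptch1, the receptor, had 570, 512 and 603 CPM in pMN and 294, 220 and 244 in iNkx2.2 (log2 fold change -1.16, edgeR adjusted p 1.39e-12). Hhip, a decoy that binds the ligand, fell by 1.65 on the log2 scale. Among the coreceptors, Gas1 fell by 1.45, Cdon rose by 0.47 (0.0686 without pairing), and Boc did not pass the test (-0.17, edgeR adjusted p 0.147). Smo, the transducer that Ptch1 inhibits, had a log2 fold change of -0.15 that was called in pairs (edgeR adjusted p 0.0261) but not without pairing (0.377), with total library size (0.392), without replicate 1 (0.227) or without replicate 2 (0.249). Sufu, the cytoplasmic inhibitor of the Gli proteins, and Disp1, which releases the ligand, had values of -0.07 and -0.08 and were not called.

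Most of the called Notch genes rose. Of 19 tested, 11 rose and 2 fell, 2 in each direction by at least 2-fold, with a median log2 fold change of 0.24, but without pairing 4 rose and 2 fell. Hey1, a transcriptional target of the pathway, rose from 57.9, 38.6 and 46.0 CPM to 195, 152 and 156 (log2 fold change 1.83 with SE 0.0591, adjusted p 3.45e-19 by edgeR), while its relative Hey2 fell by 1.24. The Hes genes, the canonical targets in neural progenitors, differed much less. Hes5 had 38.7, 32.5 and 22 CPM against 50.7, 37.8 and 22.9 (log2 fold change 0.23, edgeR adjusted p 0.0119, 0.614 without pairing, 0.319 without replicate 1), and Hes1 had 0.15 (0.0626, and 0.0418 and 0.0129 without replicates 2 and 3). Among the ligands, Jag1 rose by 0.82 and Dll1 by 0.62, and Dll4 fell by 1.41 on the log2 scale. Mfng, a glycosyltransferase that modifies Notch receptors, rose by 0.96.

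**Figure D3:**
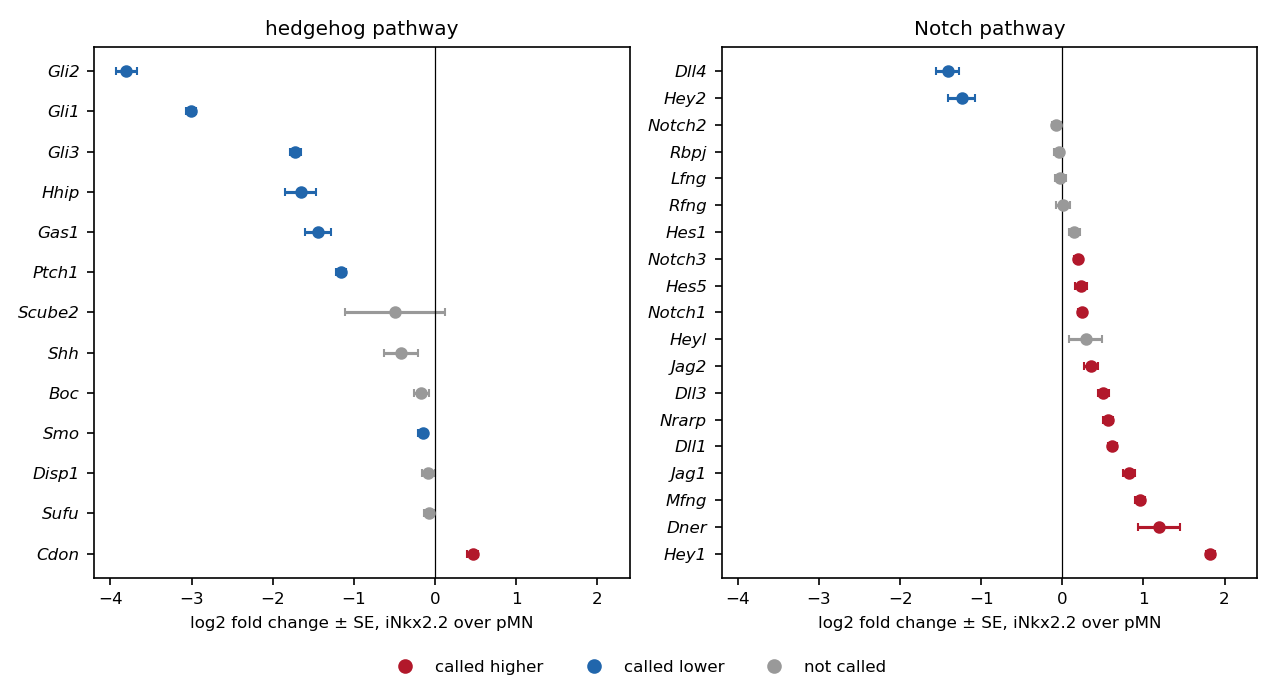
Log2 fold change of iNkx2.2 over pMN with its standard error for 13 of the 14 tested genes of the hedgehog list (left) and the 19 of the Notch list (right), in order of size, red for called higher, blue for called lower, grey for not called. In the hedgehog list Gli2, Gli1 and Gli3 are the 3 lowest and Cdon is the only gene called higher, while in the Notch list Dll4 and Hey2 are the only genes called lower and Hey1 is the highest.

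General progenitor genes were mixed, with no gene higher by 2-fold. Of 16 genes of neural progenitors and radial glia, 5 rose and 6 fell, with a median log2 fold change of 0.02 (0 and 4 without pairing). Slc1a3, the glial glutamate transporter GLAST, fell from 40.7, 44.3 and 39.9 CPM to 5.28, 5.36 and 4.44 (log2 fold change -3.04 with SE 0.0922, adjusted p 9e-20 by edgeR). Of the SoxB1 factors that keep cells in the progenitor state, Sox3 fell by 1.31, from 144, 136 and 165 CPM to 68.0, 47.5 and 65.4. Sox2 fell by 0.52 and Sox1 by 0.37 on the log2 scale (Sox1 0.193 without pairing). Nestin (Nes), an intermediate filament gene of progenitors, had 338, 352 and 303 CPM against 301, 338 and 302 and was not called (edgeR adjusted p 0.23).

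Genes of the cell cycle were slightly lower and some genes of cell cycle exit higher. Of 12 cell cycle genes tested, 11 fell and 1 rose, with a median log2 fold change of -0.29, and without pairing 3 fell and 0 rose. Only Ccnd2, the D-type cyclin that drives entry into S phase, fell by at least 2-fold, from 1388, 1572 and 1529 CPM to 509, 568 and 628 (log2 fold change -1.40 with SE 0.0512, adjusted p 5.39e-18 by edgeR). Its relative Ccnd1 rose by 0.35, a call that the unpaired fit did not make (0.212). Of 11 exit genes, 7 rose and 0 fell, with a median of 0.29 (2 and 0 without pairing). Cdkn1c, the inhibitor p57Kip2, rose from 92.0, 83.3 and 94.5 CPM to 440, 318 and 370 (log2 fold change 2.05 with SE 0.0599, adjusted p 1.53e-17 by edgeR), and it was the only exit gene higher by at least 2-fold.

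Of 20 pan-neuronal genes, 7 rose and 6 fell, with a median log2 fold change of 0.12. By at least 2-fold, 4 rose and 0 fell (5 and 1 called without pairing). Map2, a dendritic microtubule protein, rose from 96.6, 51.6 and 94.4 CPM to 222, 148 and 184 (log2 fold change 1.21, edgeR adjusted p 0.000192). Tubb3, the neuronal tubulin, rose by 1.06 (edgeR adjusted p 0.0199, and 0.0991 with no filter on low counts), Celf3, an RNA-binding protein, by 1.33, and Syt1, a synaptic vesicle protein, by 1.54 from below 2 CPM. Nsg2, a neuronal trafficking protein, fell by 0.60 on the log2 scale.

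Axon guidance genes changed in both directions. Of 42 tested, 23 rose and 14 fell, 6 and 9 by at least 2-fold, with a median of 0.35, and 6 rose and 10 fell without pairing. Slit1, a repulsive ligand for Robo receptors, rose from 126, 70.5 and 97.6 CPM to 351, 250 and 304 (log2 fold change 1.64 with SE 0.0587, adjusted p 5.14e-16 by edgeR). Sema3c, a secreted semaphorin, fell from 30.5, 41.1 and 30.3 CPM to 6.07, 6.79 and 7.63 (log2 fold change -2.30), and Sema3d fell by 1.88. The chemokine Cxcl12 and its receptor Cxcr4 moved in opposite directions, by 1.39 and -1.03. Epha4, a receptor that steers motor axons in the limb, fell by 1.40 and its ligand Efnb2 by 1.21 on the log2 scale.

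Genes of corepressors, through which Nkx2.2 is known to act, changed unequally within the TLE family. Of 14 corepressor and partner genes tested, 7 rose and 5 fell, 3 and 1 by at least 2-fold, with a median log2 fold change of 0.07, and 4 rose and 1 fell without pairing. Tle2 had 2.72, 1.57 and 2.44 CPM in pMN and 22.5, 15.4 and 17.2 in iNkx2.2 (log2 fold change 3.02 with SE 0.138, adjusted p 5.89e-16 by edgeR). Tle6, a shorter family member, went from 1.05, 1.87 and 1.14 CPM to 9.27, 15.3 and 9.81 (log2 fold change 3.08, SE 0.171). Aes (Tle5), a short form that lacks the repression domain, went from 63.6, 61.3 and 70.0 CPM to 153, 152 and 152 (log2 fold change 1.23, SE 0.0564). Tle1 fell by 1.02, from 78.0, 76.6 and 84.5 CPM to 44.0, 33.4 and 40.9. Tle3 and Tle4 had log2 fold changes of 0.21 and -0.18, with overlapping groups and no call without pairing (0.49 and 0.352), and Tle4 was not called without replicate 1 (0.229), without replicate 2 (0.133) or with total library size (0.278). By the authors' FPKM, the family in pMN was led by Tle3 at 44.9 ± 12.2 and Aes at 32.8 ± 3.15, which overlapped, and in iNkx2.2 by Aes at 82.0 ± 2.97 and Tle3 at 54.6 ± 8.08 (SD, n = 3). Tle2 reached 8.40 ± 0.77. Of the DNA methyltransferases, which also bind Nkx2.2, Dnmt3a rose by 0.68 and Dnmt1 fell by 0.37 on the log2 scale (Dnmt1 0.0503 without pairing).

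The 3 TLE genes with the largest rises lie side by side on chromosome 10. Distances here run between the lower coordinates of the genes, whatever their strand. The start of Aes (81559444 to 81566371, GRCm38) is 15.3 kb before that of Tle2 (81574739 to 81592581) and the start of Tle6 (81590904 to 81601185) is 16.2 kb after it. Tle2 and Tle6 overlap at their ends on opposite strands, and whether counting used the strand is not given in the sources used here, so part of their counts may be shared. The nearest protein-coding genes on either side did not pass the test: Gna11 had a log2 fold change of -0.00 and Sirt6 of 0.09 (Sirt6 was called with total library size, 0.0318). Farther out, Celf5 at 116 kb rose by 1.30 and Ankrd24 at 53.1 kb by 0.53. Other neighbours with changes in the same direction included Olig2 with Olig1, whose starts are 44.2 kb apart and which fell together, and Art1 with Art5 (starts 4.83 kb apart), a pair of ADP-ribosyltransferase genes that rose by 2.89 and 2.45. Smaller changes stood beside Neurog2, where Alpk1 at 34.0 kb fell by 1.27, and beside Upk3a, where Fam118a at 19.9 kb rose by 1.03. Around Nkx2-9, its homolog Nkx2-1, 79.5 kb away, fell from 23, 18 and 26 counts to 8, 0 and 1 (log2 fold change -3.73, and -5.41 without replicate 1). The long noncoding RNA Gm26973 beside it fell from 36, 25 and 39 counts to 5, 0 and 0. The annotated span of Gm26973 (56537190 to 56627767) contains Nkx2-9, so some of its reads may belong to that gene. Further genes within 150 kb were called with changes of less than 2-fold. Larp7 and 4930422G04Rik beside Neurog2 had log2 fold changes of -0.34 and -0.44. Slc25a21 beside Nkx2-9 had -0.66, Trpc2 beside Art5 -0.15 and 5031439G07Rik beside Upk3a 0.73. Of these, only 5031439G07Rik was also called without pairing (0.0202). Over all genes tested 45.9% were called, and the share among neighbours was not compared with this. Art5, Nkx2-1, Gm26973, Gna11, Sirt6, Celf5, Ankrd24, Alpk1 and Fam118a were named after their values had been seen. The same holds for Larp7, 4930422G04Rik, Slc25a21, Trpc2 and 5031439G07Rik.

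**Figure D4:**
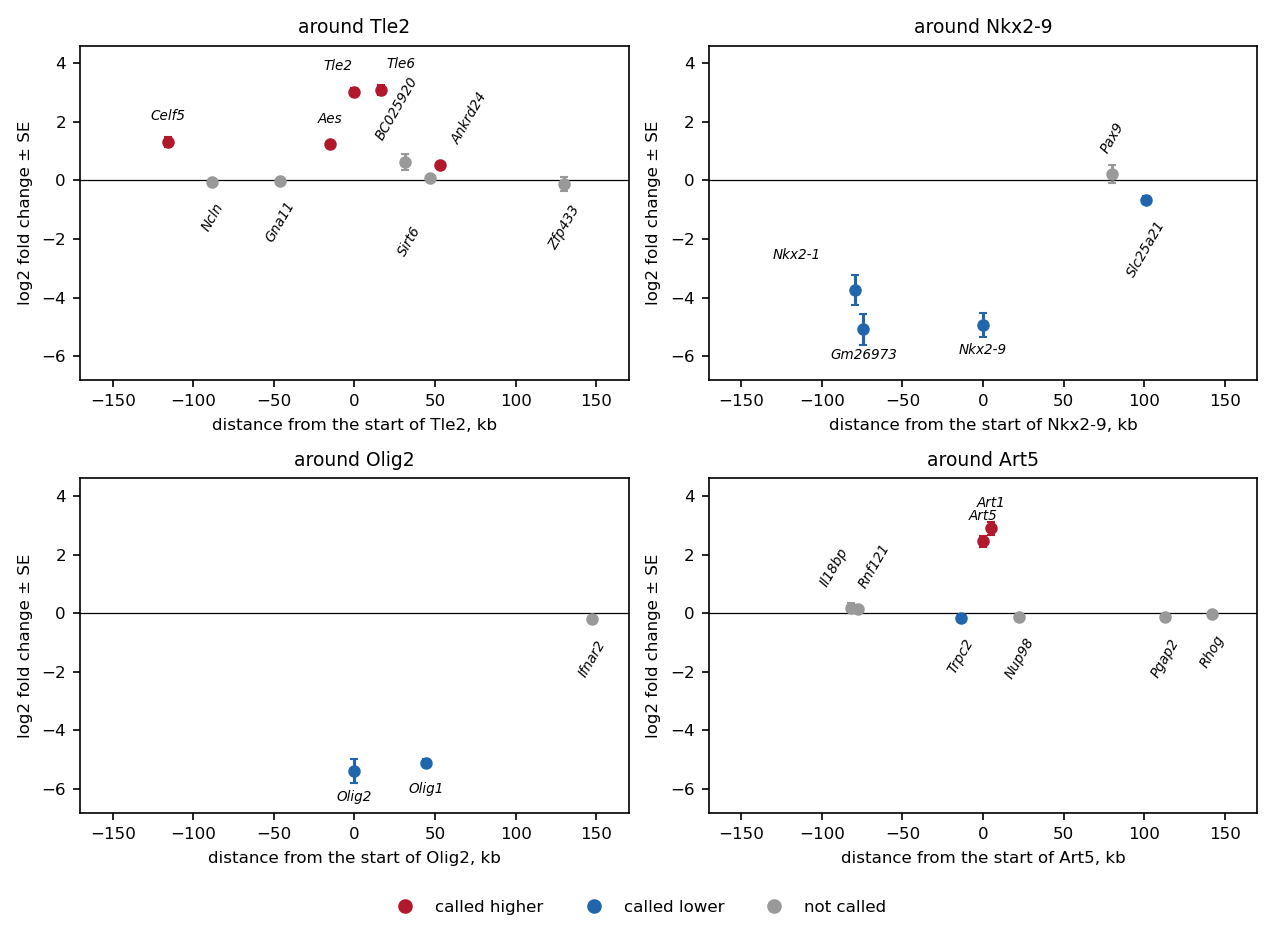
Log2 fold change with its standard error of each tested gene whose start lies within 150 kb of the start of Tle2, Nkx2-9, Olig2 or Art5, plotted against the distance between starts (lower coordinates) in kb. Aes, Tle2 and Tle6 are high between Gna11 and Sirt6, which were not called, Olig2 with Olig1 and Nkx2-9 with Nkx2-1 and Gm26973 are low, and Art5 stands high with Art1.

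Since Nkx2.2 is best known from pancreatic islets and hindbrain serotonergic neurons, genes of both were examined. Of the 20 tested of 30 pancreatic endocrine genes, 13 rose and 2 fell, 8 and 2 by at least 2-fold, with a median of 0.51 (6 and 2 without pairing). Chgb, a protein of secretory granules, rose from 8.92, 3.68 and 7.38 CPM to 42.4, 24.4 and 40.6 (log2 fold change 2.44 with SE 0.0982, adjusted p 5.42e-17 by edgeR). The 2 subunits of the ATP-sensitive potassium channel, Abcc8 and Kcnj11, rose by 2.28 and 1.47 to at most 4.63 and 2.12 CPM, and Pcsk1, a prohormone convertase, by 1.52 (Kcnj11 0.0541 without pairing). Sst, the hormone somatostatin, fell from 7.76, 1.99 and 5.48 CPM to 0.673, 0.0893 and 0.188 (log2 fold change -3.94, and -4.72 without replicate 1). The hormone genes Ins2 and Gcg had no count in any of the 6 libraries and Ins1 had 1. Insm1, Chgb and Pcsk1 are also expressed in neurons. Of the 6 tested of 9 serotonergic genes, 3 rose and 1 fell. Slc18a2, the vesicular monoamine transporter, rose from 14.2, 6.76 and 11.3 CPM to 45.8, 27.0 and 26.8, while Ddc, an enzyme of serotonin synthesis, fell by 1.45 and Fev, the factor that defines these neurons, had no count in any of the 6 libraries.

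Beyond these groups, the strongest decreases by the naming rule included Foxb1, Pappa and Fgf15. Foxb1, a forkhead gene of neural progenitors, went from 49.1, 44.3 and 43.6 CPM to 1.30, 1.25 and 0.940 (log2 fold change -5.28 with SE 0.115, adjusted p 5.49e-23 by edgeR). Pappa, a protease that releases insulin-like growth factors from their binding proteins, went from 46.2, 50.6 and 38.2 CPM to 1.61, 1.79 and 0.865 (log2 fold change -4.97). Fgf15, a fibroblast growth factor of the neural tube, had a log2 fold change of -3.26. Apart from Nkx2-2, the strongest increases began from levels below 5 CPM. Unc80, a subunit of the NALCN sodium leak channel complex, rose by 3.90, the cadherin Cdh22 by 3.55, and Nxph4, a ligand of neurexins, by 2.88. Casz1, a zinc-finger factor, rose from 3.21, 2.17 and 4.47 CPM to 26.8, 26.6 and 31.8 (log2 fold change 3.10). Adamtsl2, an extracellular matrix protein, rose by 3.49, Phactr3, a phosphatase 1 regulator, by 3.13, and Pou3f1, a POU factor also known as Oct6, by 2.95 (2.36 without replicate 3). All of these had groups without overlap, as did 4194 of the 6885 genes called in pairs. They were picked as the largest changes, so the lack of overlap does not set them apart.

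Markers of other cell types were mostly low, with endoderm genes the highest in sum. Of the pluripotency genes 5 of 10 could be tested and 0 were called in either direction (0 in the unpaired fit), with summed levels of 15.8 to 27.7 CPM in pMN and 14.3 to 30.4 in iNkx2.2. Endothelial and blood genes (6 of 10 tested) had 0 calls in the paired and the unpaired fit and 14.4 to 15.7 against 9.58 to 14.8 CPM. Mesoderm genes (6 tested) had 0 higher and 2 lower (0 and 0 without pairing) and 10.2 to 13.9 against 9.90 to 12.7 CPM, and endoderm genes (9 tested) 1 in each direction (0 and 0 without pairing) and 89.5 to 152 against 85.3 to 154 CPM. The neural crest list differed more, with 3 higher and 1 lower of 5 tested (1 and 0 without pairing) and 13.7 to 23.0 against 24.9 to 37.7 CPM. Erbb3, a neuregulin receptor that other cells also express, rose from 3.05, 3.92 and 4.43 CPM to 9.40, 13.3 and 14.6 (log2 fold change 1.71), while the defining crest factors Sox10, Foxd3 and Tfap2a were below the count filter. Their part in the other results was not tested.

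The series also holds Nkx2.2 binding sites from MIN6 cells, a mouse beta-cell line, and these were set beside the changes in progenitors. They are sites of another cell type, so they do not show binding here. Of the 10547 tested genes with an annotated start in the promoter table, 10.2% had one of the authors' 6473 final sites within 10 kb. Of the genes higher by at least 2-fold, 11.7% of 514 had one, and of those lower by at least 2-fold, 7.81% of 192. Within 50 kb the shares were 32.1%, 33.3% and 22.9%. Several strongly changed genes of both directions had no site within 10 kb. The nearest site lay 37.6 kb from Pax6, 221 kb from Neurog2, 240 kb from Olig2 and 284 kb from Nkx2-9, which fell. It lay 36.6 kb from Uncx, 168 kb from Tle2 and 190 kb from Tle6, which rose. Ptch1 had a site at 670 bp. Upk3a, a uroplakin gene of the urinary tract, had one at 14 bp from its start. Upk3a had 0.887, 0.965 and 0.253 CPM in pMN and 22.3, 23.6 and 11.1 in iNkx2.2 (log2 fold change 4.79 with SE 0.176, adjusted p 5.95e-18 by edgeR), the largest increase after Nkx2-2 among genes with an average log2 CPM over 2.

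Promoters are printed for Upk3a, which has a MIN6 site at its start, for Neurog2, Pax6 and Olig2, the largest falls among the abundant genes, and for Nkx2-9, chosen after the search below as the only one of 8 windows examined that held the motif. Each is the stretch of 250 bases before a transcript start in a RefSeq promoter table for GRCm38.p6, written 5′ to 3′ on the gene's own strand. For Neurog2 and Nkx2-9 that start lies inside the gene span of the annotation, so these windows are not upstream of the whole gene. Capitals in Upk3a mark the position of the MIN6 site with 5 bases on each side, and capitals in Nkx2-9 mark the motif CACTT. Upk3a lies at chr15:85016891-85017140 on the plus strand, Neurog2 at chr3:127632886-127633135 plus, Pax6 at chr2:105668646-105668895 plus, Olig2 at chr16:91225300-91225549 plus and Nkx2-9 at chr12:56613285-56613534 minus.
Upk3a: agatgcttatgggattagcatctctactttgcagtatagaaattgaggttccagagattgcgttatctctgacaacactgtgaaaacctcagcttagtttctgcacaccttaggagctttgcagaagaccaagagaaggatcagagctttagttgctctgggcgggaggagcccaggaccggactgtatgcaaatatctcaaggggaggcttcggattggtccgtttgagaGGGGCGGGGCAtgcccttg
Neurog2: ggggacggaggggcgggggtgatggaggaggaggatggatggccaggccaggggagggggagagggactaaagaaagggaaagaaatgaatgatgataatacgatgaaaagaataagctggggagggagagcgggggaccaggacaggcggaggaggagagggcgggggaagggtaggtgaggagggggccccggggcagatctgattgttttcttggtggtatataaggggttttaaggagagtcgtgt
Pax6: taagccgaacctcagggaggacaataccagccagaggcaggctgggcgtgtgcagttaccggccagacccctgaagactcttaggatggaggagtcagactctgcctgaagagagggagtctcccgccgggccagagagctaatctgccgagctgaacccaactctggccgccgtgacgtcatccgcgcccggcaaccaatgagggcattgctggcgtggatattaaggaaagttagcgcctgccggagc
Olig2: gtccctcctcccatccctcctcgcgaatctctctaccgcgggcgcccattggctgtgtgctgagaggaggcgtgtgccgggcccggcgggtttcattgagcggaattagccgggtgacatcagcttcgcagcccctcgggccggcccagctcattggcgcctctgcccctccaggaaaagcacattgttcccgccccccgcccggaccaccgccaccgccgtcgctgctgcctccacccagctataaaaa
Nkx2-9: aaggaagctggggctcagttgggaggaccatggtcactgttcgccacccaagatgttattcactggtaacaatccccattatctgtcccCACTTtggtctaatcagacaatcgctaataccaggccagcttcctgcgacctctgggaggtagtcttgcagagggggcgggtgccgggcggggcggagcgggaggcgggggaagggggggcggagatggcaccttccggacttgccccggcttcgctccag
The motif searched was CACTT, or AAGTG on the other strand, the core that Nkx2 homeodomains are known to prefer. It was present in 40.7% of the 32851 promoter windows of this length and, of the 5 printed, in Nkx2-9 alone. The window of Upk3a, where the MIN6 site lies, held none. A match is a description of the letters and not a bound site.

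In the authors' deposited table for this comparison, 1161 genes were called, 564 higher and 597 lower. Of these, 1153 were also called in the pairs here with the same sign, which is 99.3% of the authors' list and 16.7% of the calls made here. Both lists draw on the same libraries, and the authors' list is much the shorter. The calls here cover 45.9% of all genes tested, so the overlap is not independent evidence.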

How the data were processed

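The authors deposited whole-number read counts per gene for the progenitors, FPKM values per gene, and a table of log2 fold changes, p-values and call scores (-1, 0 or 1 per comparison) for the genes they called. The tools named per the submitters' processing notes are STAR, Cufflinks, edgeR 3.20.9, limma 3.34.9 and DESeq2, with the build mm10, and the role of each is not given in the sources used here. The counting rule and the use of strand are not given in the sources used here, so genes that overlap, lie antisense or have near-identical copies are uncertain. For MIN6 cells the authors deposited final Nkx2.2 sites with log2 CPM values, used here by position only.

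Counts were tested with edgeR 4.0.16 (R 4.3.3): TMM factors, filterByExpr, robust quasi-likelihood fit with the replicate number as a block, Benjamini-Hochberg adjustment at 0.05 over all genes tested, and 2 residual degrees of freedom. Numbers come from the sample titles. Libraries of the same number were taken as pairs because the comparison was defined that way. Deviations from the group means correlated at 0.561, 0.548 and 0.584 within numbers and at -0.166 or lower between numbers. Deviations of the 3 libraries of a group cancel out, so the negative values follow in part from the positive ones. No libraries of a group held identical counts. Each standard error was taken as |log2 fold change| over the root of its F value. CPM are counts per 1e+06 scaled counts. FPKM served only to compare levels between genes.

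The members and all 28 gene lists were chosen with earlier results of these data known, so no count over a list is independent evidence. Named genes are Nkx2-2, list members, and the 12 largest called changes in each direction whose average log2 CPM reached 2, with the same direction in all 3 pairs. In 216 lines of the count table the symbol repeated that of an earlier one, and these stayed separate. On simulated counts with 200 genes changed by 2-fold or 4-fold, the paired fit recovered most changed genes, but its share of false calls was above the stated threshold. Its calls may thus be less certain than their adjusted p. Smaller changes were not simulated. Alternatives were no block, a lane term, the 8 progenitor libraries in 3 groups, RLE factors, total library size, other filters, DESeq2 1.42.0, a minimum change of 2-fold, each pair left out, and, chosen after seeing the data, iNkx2.2 replicate 1 thinned to the depth of pMN replicate 1 and counts of calls of at least 2-fold. Some members of the lists are counted but not reported here by name.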

Additional observations from a re-analysis of the deposited data

How the results depend on the processing

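The number of calls depended on the pairing and on the smallest change tested. With the replicate block 6885 genes were called (3389 higher, 3496 lower). With no replicate block it was 1612 (882 and 730), with a lane term in place of the block 3482 (1815 and 1667), and with the 8 libraries in 3 groups 1486 (738 and 748). Against a minimum change of 2-fold it was 373 (240 and 133). With a pair left out it was 4330 to 7187 (2052 to 3543 higher, 2278 to 3644 lower), lowest without replicate 1. Total library size gave 6832 calls (4605 higher, 2227 lower), of which 67.4% were higher against 49.2% with TMM factors, and it moved the median of all genes to 0.09. Calls of at least 2-fold moved less: 747 higher and 291 lower became 487 and 230 with no replicate block, 415 and 215 with 8 libraries, 456 and 185 with the stricter filter, which tests fewer genes, 240 and 133 against the minimum of 2-fold, and 600 to 943 and 277 to 301 with a pair left out. RLE factors, no filter, DESeq2 with the block (5139 calls) and the thinned library (6744) kept the total within 1.5 times. Of 146 named genes, 117 had the same call with no replicate block, 28 lost it and 1, Irx3, gained it. None changed direction while called under any alternative. Leaving out both libraries of a number leaves 2 pairs and 1 residual degree of freedom. Low counts limit Uncx, Sim1, En1, Gm26973 and Nkx2-1.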

Other observations

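Genes of the integrated stress response, which cells switch on when amino acids are short or proteins misfold, were lower in the induced cultures. Of the 18 tested of 20, 9 fell and 2 rose, with a median log2 fold change of -0.56 (8 and 0 without pairing). Atf4, the factor that drives the response, had 176, 228 and 171 CPM in pMN and 109, 116 and 115 in iNkx2.2, a log2 fold change of -0.74 (edgeR adjusted p 3.39e-08). Its targets Chac1, Asns and Psat1 had log2 fold changes of -2.35, -1.07 and -1.12, and in each of these the highest level was in pMN replicate 2. Of 13 tested genes of the retinoic acid pathway, 4 rose and 5 fell, and Crabp1, a carrier protein for retinoic acid, fell from 335, 307 and 280 CPM to 190, 133 and 109 (log2 fold change -1.13).

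Nuclear genes of the mitochondrial respiratory chain differed little. Of 32 tested, 19 were called lower and 0 higher, with a median of -0.14, none by 2-fold. The count of lower calls was 0 without pairing, 5 with total library size (and 1 higher), 7 without replicate 1, 7 without replicate 2 and 24 without replicate 3. Of 11 immediate early genes, 5 rose and 0 fell in pairs and 0 were called without pairing, and the largest change was that of Ier3 (log2 fold change 1.10). Apart from Upk3a, 9 called genes with a change of at least 2-fold and an average log2 CPM over 2 had a MIN6 site within 300 bp of the start. Of these Grrp1 fell, by 1.82 on the log2 scale, and 8 rose, the most by Cdhr1, a photoreceptor cadherin, from 8.65, 4.71 and 10.2 CPM to 30.2, 26.3 and 40.4. These 10 genes were picked by their sites, and their number is given without a test. Over all genes tested, at any level, calls of at least 2-fold were also mostly rises, 747 higher against 291 lower. The share of all tested genes with a site within 300 bp was not computed, so no link between such sites and the direction of change can be read from these genes.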
